A study of Mus musculus with 30 samples.

Results

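The genes of the NLRP3 inflammasome and of the interleukin-1 family (10 genes, chosen by name out of the 47643 genes listed) were examined in RNA-seq libraries of microglia from mice in which *Bin1* was deleted with *Cx3Cr1-Cre*. They comprise the sensor *Nlrp3*, the adaptor *Pycard*, the caspases *Casp1* and *Casp4*, the pore-forming protein *Gsdmd*, the ATP-gated channel *P2rx7*, the cytokines *Il1a*, *Il1b* and *Il18*, and the receptor antagonist *Il1rn*. All 10 were above 0 in each of the 30 libraries, and all 10 passed the filter on low values (a mean of at least 0.1 FPKM, which counts fragments relative to transcript length and to library size). Homo mice were *Bin1* flox/flox with *Cx3Cr1-Cre*+ (5 males and 5 females), Het mice were *Bin1* wt/flox with *Cx3Cr1-Cre*+ (6 males and 5 females), and the mice labelled WT (5 males and 4 females) are given by the study as *Bin1* wt/flox without Cre or as WT littermates. The cells were CD11b+ CD45 med microglia, sorted by FACS from the brains of 3 month-old mice. The Cre allele is a knock-in at *Cx3cr1*, which microglia and other mononuclear phagocytes express, so Cre, the reduced *Cx3cr1* and the missing *Bin1* copy coincide in each Cre-positive group and cannot be told apart. The sort is described in the methods of the study, but the labels hold a protocol for cultures of newborn microglia given Tau, LPS and ATP. LPS and ATP are the textbook stimuli of this pathway, and whether any library had received them was not tested. The groups are written Homo-M, Het-M, WT-M, Homo-F, Het-F and WT-F.

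Microglia make interleukin-1 in steps. Signals through Toll-like receptors and NF-kappaB prime the cell by inducing *Nlrp3* and *Il1b* transcription. A second signal, such as extracellular ATP acting on the P2X7 receptor, lets NLRP3 assemble with the adaptor ASC (encoded by *Pycard*) and activate caspase-1, which cleaves the precursors of IL-1beta and IL-18 and the pore-forming gasdermin D. Caspase-4 of the mouse (caspase-11) senses intracellular LPS and cleaves gasdermin D directly. IL-1alpha needs no caspase-1 to signal, and the products of *Il1rn* and *Il1r2* oppose IL-1 as a competing ligand and a decoy receptor. RNA levels tell nothing about assembly, cleavage or secretion, which were not measured.

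The labels were checked first. *Bin1* was at 230.3 to 289.5 FPKM in WT-M and 244.4 to 271 FPKM in WT-F, and at 39.9 to 55.6 FPKM in Homo-M and 39.5 to 43.3 FPKM in Homo-F. The libraries labelled Het-F-0206 (*Bin1* at 42.7 FPKM) and Het-M-0199 (51.8 FPKM) lay within the Homo range of their sex, whereas the other Het libraries lay between 117 and 164 FPKM. *Cx3cr1* was at 13.9 FPKM in Het-F-0206, against 610 to 1243 FPKM in the other Cre-positive libraries and 1829 to 2344 FPKM in WT. The comparisons of Het with WT were therefore repeated without these libraries. Microglial markers summed to 19136 to 26918 FPKM per library over 9 genes. The mouse numbers leave a gap between WT-F-0122 and WT-M-0176, and libraries before and after it are called early and late. Early numbers were carried by 3 Homo-M, 2 Het-M, 1 WT-F and 0 WT-M libraries, and in males this split cannot be fully told apart from genotype. Relative depth, read from the smallest steps between values, ranged from 0.669 to 1.41. Its median was 1.17 in WT-M, 0.92 in Homo-M and 0.916 in Het-M. In females it was 1.12 in WT-F, 0.946 in Homo-F and 1 in Het-F. Each Cre-positive group thus had a lower median depth than WT of the same sex. Absolute depth is unknown.

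*Pycard* had the highest level per length, with a mean of 207.01 FPKM over the 30 libraries, and lay above *Gsdmd* in 30 of 30 libraries. *Gsdmd* (95.5 FPKM), *P2rx7* (91.3 FPKM) and *Il1a* (91.1 FPKM) had no fixed order, since *Gsdmd* exceeded *P2rx7* in 14 of 30 libraries and *P2rx7* exceeded *Il1a* in 12 of 30. *Il18* (44.1 FPKM) exceeded *Casp1* (37.9 FPKM) in 26 of 30 libraries. *Nlrp3* (15.8 FPKM) and *Casp4* (15.3 FPKM) followed, with *Nlrp3* the higher in 19 of 30 libraries. *Il1b* (4.09 FPKM) and *Il1rn* (0.369 FPKM) were the lowest, each below the preceding gene in every library. The *Il1a* level therefore exceeded that of *Il1b* throughout, by a median ratio of 24.3 with a range of 13.0001 to 42.5.

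Positions are from the GRCm38 assembly (GENCODE M21), in which all 10 genes are protein-coding. *Il1b* (chr2:129364570-129371139, minus strand) and *Il1a* (chr2:129299610-129309972, minus strand) are neighbours, 54597 bases apart. *Casp1* (chr9:5298517-5307265, plus strand) and *Casp4* (chr9:5308828-5336783, plus strand) are separated by 1562 bases. *Nlrp3* (chr11:59541568-59566956, plus strand), *Gsdmd* (chr15:75862327-75867408, plus strand), *P2rx7* (chr5:122643911-122691432, plus strand), *Il18* (chr9:50554827-50581840, plus strand), *Pycard* (chr7:127989708-127993867, minus strand) and *Il1rn* (chr2:24336853-24351494, plus strand) lie elsewhere. *Il1a* overlaps *Gm14023*, *Il1b* overlaps *Il1bos*, *Pycard* overlaps *Gm45205* and *Il18* overlaps *Bco2* and *Tex12*, each on the opposite strand. *P2rx7* holds the microRNA gene *Mir8115* on its own strand. Nextera XT libraries do not mark strand, so reads of these partners cannot be told apart from those of the genes.

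The sequence upstream of 4 genes is shown because the results below turn on them: *Il1b* is the gene that rose over all Cre-positive groups, *Il1a* and *Casp4* are those that rose in Homo-M, and *Nlrp3* is the primed sensor. The sequences are from RefSeq on GRCm38.p6, run 5′ to 3′ along the gene's strand and end at or just before the annotated first exon. Capitals mark matches on either strand. The motifs searched were the kappaB consensus of 10 letters and the TATA box, spelled TATAAA. The binding motif of AP-1 factors was searched as TGACTCA. That of ETS factors, which is found at many myeloid genes, was searched as AGGAAGT. *Il1b* covers chr2:129371140-129371389 (minus strand), *Il1a* chr2:129309973-129310222 (minus strand), *Casp4* chr9:5308599-5308827 (plus strand) and *Nlrp3* chr11:59541319-59541567 (plus strand).
Il1b: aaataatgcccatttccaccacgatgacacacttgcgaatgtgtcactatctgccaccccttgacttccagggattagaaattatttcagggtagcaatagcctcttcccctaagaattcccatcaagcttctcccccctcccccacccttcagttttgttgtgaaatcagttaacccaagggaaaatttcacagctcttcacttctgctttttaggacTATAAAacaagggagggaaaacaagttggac
Il1a: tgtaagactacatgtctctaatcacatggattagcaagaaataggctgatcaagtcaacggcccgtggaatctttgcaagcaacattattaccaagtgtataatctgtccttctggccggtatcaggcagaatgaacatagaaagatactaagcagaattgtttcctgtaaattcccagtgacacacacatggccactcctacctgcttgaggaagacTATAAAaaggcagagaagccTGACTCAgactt
Casp4: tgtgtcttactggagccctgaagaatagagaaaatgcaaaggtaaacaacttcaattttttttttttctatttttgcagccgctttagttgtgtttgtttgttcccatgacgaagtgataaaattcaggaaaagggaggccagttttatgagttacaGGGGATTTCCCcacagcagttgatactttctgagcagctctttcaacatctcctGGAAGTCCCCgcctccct
Nlrp3: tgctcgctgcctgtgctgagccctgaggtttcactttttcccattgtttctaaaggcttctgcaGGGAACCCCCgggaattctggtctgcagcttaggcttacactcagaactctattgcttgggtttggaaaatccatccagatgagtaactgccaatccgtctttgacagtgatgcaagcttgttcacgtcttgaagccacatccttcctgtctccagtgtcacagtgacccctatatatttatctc

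Counted back from the RefSeq start site, *Il1b* held TATAAA from base 31 to 26, and *Il1a* held it from base 32 to 27 with an AP-1 match from base 12 to 6. The *Casp4* window held kappaB matches at bases 93 to 83 (a pair that overlaps) and 39 to 30, and the *Nlrp3* window held a kappaB match that began 186 bases before it. Among 32851 promoter windows of 250 bases, 7.25% held a kappaB match, 12.4% TATAAA, 4.46% the AP-1 and 7.69% the ETS heptamer. Of the other genes, *Pycard* held an ETS match, *P2rx7* and *Il1rn* an AP-1 match and *Il18* a TATAAA match, *Casp1* held none of the 4 motifs, and *Gsdmd* had no entry. Matches are descriptions of the letters in these windows and do not show that a factor binds there.

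*Il1b*, which encodes the precursor of IL-1beta, was higher than in WT in each of the 4 Cre-positive groups. In WT-M its FPKM was 1.90, 1.498, 1.59, 3.67 and 4.18, and in WT-F 3.72, 1.77, 2.73 and 2.39. It was 6.31, 3.90, 6.06, 2.95 and 3.79 in Homo-M, and between 2.86 and 7.66 with a median of 4.17 in the 6 Het-M libraries. Both groups overlapped with WT-M, where WT-M-0202 and WT-M-0258 lay well above the other 3. In Homo-M the 3 early libraries lay at 3.90 to 6.31 FPKM. The 2 late ones, at 2.95 and 3.79, were within the range of WT-M. In Het-M the 2 early libraries were at 3.91 and 4.68 FPKM and the 4 late ones at 2.86 to 7.66. In females the values were 3.38, 5.28, 4.26, 5.73 and 4.21 in Homo-F, and 4.08, 6.65, 4.28, 7.25 and 4.63 in Het-F. All Het-F libraries exceeded all WT-F libraries, and 1 Homo-F library (Homo-F-0193) lay below the highest WT-F library. No overlap between groups was seen in 2.21% of all genes for Het-F and WT-F, and in 2.31% for Homo-F and WT-F.

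The log2 fold change of *Il1b*, on the scale of log2(FPKM + 0.1), was 0.81 in Homo-M (SE 0.27, n = 5 and 5), 0.74 in Het-M (SE 0.25, n = 6 and 5), 0.78 in Homo-F (SE 0.28, n = 5 and 4) and 1.00 in Het-F (SE 0.28, n = 5 and 4). None of these passed the correction over 16897 genes by limma (adjusted p = 0.0814, 0.231, 1 and 0.278 in that order), although the unadjusted limma p-values were 0.00508, 0.00674, 0.0094 and 0.0014. The differences share their WT libraries within a sex. Over 12 other settings of the fit, late numbered mice alone among them, the Homo-M value ranged from 0.50 to 0.89. Its adjusted p there ranged from 0.0405 to 0.824 by limma. The effect in males and females differed by 0.02 in Homo (95% interval -0.77 to 0.81) and by -0.25 in Het mice (-1.03 to 0.52), and neither limma test of the difference passed (adjusted p = 0.99 and 0.901). Without Het-F-0206 and Het-M-0199 the *Il1b* differences were 0.82 in Het-M and 0.92 in Het-F, with adjusted p = 0.176 and 0.754 by limma.

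**Figure D1:**
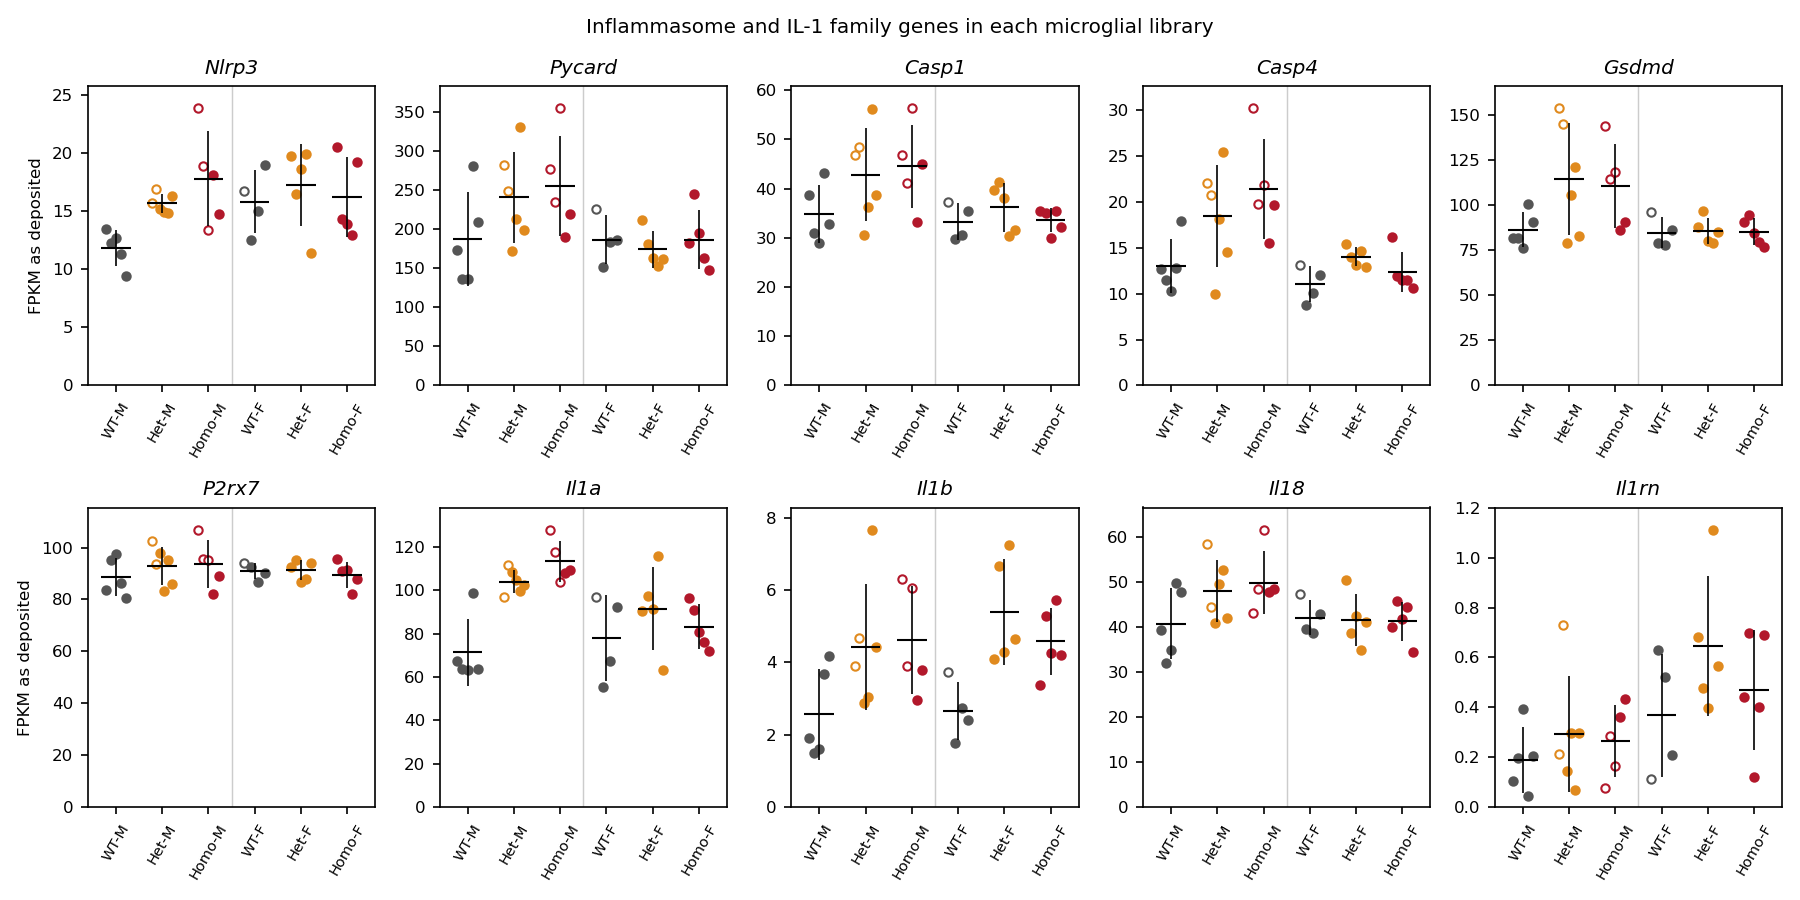
FPKM of the 10 genes (vertical axes, linear from 0) in each library of the 6 groups (horizontal axes). Points are libraries, open for early and filled for late mouse numbers, and black lines give the mean ± SD. *Il1b* lies higher in the Cre-positive groups of both sexes, *Il1a* separates Homo-M from WT-M, and *P2rx7* stays between 80.6 and 107 FPKM in all libraries.

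Because the *Il1b* differences went in the same direction in the 4 groups, the mean of the Cre-positive groups was also set against the mean of the WT groups, a comparison that was chosen after the values had been seen and is not independent of those above. *Il1b* ranged from 2.86 to 7.66 FPKM (median 4.28) in the 21 Cre-positive libraries and from 1.498 to 4.18 FPKM (median 2.39) in the 9 WT libraries. All 21 Cre-positive libraries exceeded the median of the WT libraries of their sex, and 14 exceeded the highest of them. The difference was 0.83 on the log2 scale (SE 0.17, 95% interval 0.49 to 1.18), or 1.78-fold, and passed the thresholds by limma (adjusted p = 0.00665). A gene was called when its adjusted p was below 0.05 and its fold change above 1.5, which 0.823% of all genes met in this comparison, and 14.5% had an unadjusted p below 0.05. *Il1b* was called in 30 of 30 fits that each left out 1 library (log2 fold change 0.75 to 0.93, adjusted p at most 0.0337) and in 7 of 7 other settings (0.65 to 0.88).

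*Il1a* also had an adjusted p below the threshold in that comparison (0.36, SE 0.09, adjusted p = 0.041 by limma), but its fold change of 1.29 was below 1.5, so that *Il1b* was the 1 gene called among the 10. By limma the other differences were 0.38 for *Casp4* (adjusted p = 0.0606), 0.43 for *Il1rn* (0.49), 0.24 for *Nlrp3* (0.286), 0.15 for *Casp1* (0.362), 0.15 for *Pycard* (0.52), 0.14 for *Gsdmd* (0.369), 0.08 for *Il18* (0.602) and -0.01 for *P2rx7* (0.951). The median over the 10 genes was 0.19, against 0.01 over all genes tested. At an unadjusted p below 0.05 there were 4 of the 10 genes.

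Other cells of the myeloid lineage also express *Il1b*, and markers of the cell types that a sort could carry along were summed in each library. Over the 9 neutrophil markers the sum ranged from 41.4 to 343 FPKM in WT-M (median 70.3) and from 0.113 to 80.7 in Homo-M (median 0.688). It had medians of 11.9 in Het-M, 41.0 in WT-F, 11.3 in Homo-F and 23.1 in Het-F. The medians were lower in each Cre-positive group than in WT of the same sex. Of the 7 neutrophil markers tested, limma called 3 lower in Homo-M, where 1.81% of all genes were called. In Het-M, Homo-F and Het-F it called 0 (background 0.154%, 0.071% and 0.13%). The 8 border macrophage markers summed to 18.1 to 51.5 FPKM in WT-M, 12.9 to 31.3 in Homo-M, 14.1 to 24.0 in Het-M, 19.3 to 34.6 in WT-F, 12.02 to 41.9 in Homo-F and 13.2 to 38.0 in Het-F. Other lists had higher medians in Cre-positive males. The 6 monocyte markers summed to a median of 5.11 FPKM in WT-M, 6.07 in Homo-M and 6.41 in Het-M, and to 5.41 in WT-F, 5.55 in Homo-F and 5.06 in Het-F. The medians of the 5 oligodendrocyte markers were 27.3 FPKM in WT-M, 32.2 in Homo-M and 43.5 in Het-M, and those of the 5 neuron markers were 3.39, 5.51 and 6.69. In females the oligodendrocyte medians were 29.6 FPKM in WT-F, 34.1 in Homo-F and 33.2 in Het-F, and the neuron medians were 3.29, 4.58 and 5.38. The part of these cells in the *Il1b* differences was not tested. Genes of the early response to tissue handling (11 genes) summed to 211 to 292 FPKM, and the group medians lay between 233 and 251. *Btg2* (mean 105.8 FPKM) and *Junb* (85.9 FPKM) were the largest parts of this sum. *Fos* (0.312 FPKM) and *Hspa1a* (0.815 FPKM) hardly entered it. Of the 10 handling genes tested, limma called 1 lower in Homo-M than in WT-M (1.81% of all genes were called). At an unadjusted p below 0.05, 1 was higher and 3 were lower (22.5% of all genes). In bulk libraries of this kind, more cells with a transcript and more transcript per cell cannot be told apart.

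*Il1a*, which encodes IL-1alpha, rose in Homo-M. Its FPKM was 67.2, 63.7, 63.2, 98.7 and 63.8 in WT-M and 128, 118, 104, 108.01 and 109.3 in Homo-M, without overlap between the groups. WT-M-0202 stood apart at 98.7, just below the lowest Homo-M library. No overlap between Homo-M and WT-M was seen in 3.94% of all genes. The log2 fold change was 0.60 (SE 0.15), or 1.52-fold, with an adjusted p of 0.0267 by limma. The call was lost in 6 of 10 fits that each left out a library (without Homo-M-0093, Homo-M-0097, WT-M-0176, WT-M-0177, WT-M-0178 or WT-M-0258), where the log2 fold change over all 10 fits was 0.56 to 0.72. In late numbered mice alone the difference was 0.63 (adjusted p = 0.341 by limma), with 2 Homo-M libraries left, and it was 0.59 when the number range entered the fit (adjusted p = 0.176).

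The 6 Het-M libraries had *Il1a* between 97.05 and 111 FPKM (median 104), of which 1 lay below WT-M-0202, and the log2 fold change was 0.49 (SE 0.14, adjusted p = 0.153 by limma). Without WT-M-0202 it was 0.60 with an adjusted p of 0.0473. In females *Il1a* was at 96.6, 55.3, 67.5 and 92.0 FPKM in WT-F, at 96.3, 91.0, 80.6, 76.2 and 71.9 in Homo-F and at 90.4, 97.2, 91.1, 116 and 63.1 in Het-F, and the groups overlapped. The log2 fold changes were 0.12 (95% interval -0.20 to 0.44) in Homo-F and 0.24 (-0.08 to 0.56) in Het-F. The male and female effects of Homo differed by 0.48 (SE 0.21), which had an unadjusted limma p of 0.032 and did not pass the correction (adjusted p = 0.528). *Il1a* thus passed in Homo-M and not in Het-M, Homo-F or Het-F, but a difference between the sexes was not shown.

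*Casp4*, the other gene of the 10 to rise in Homo-M, was at 12.7, 11.5, 10.3, 12.8 and 17.9 FPKM in WT-M and at 30.2, 19.8, 21.8, 15.5 and 19.6 in Homo-M. The groups overlapped through WT-M-0258 and Homo-M-0189. The log2 fold change was 0.62 (SE 0.17), or 1.54-fold, with an adjusted p of 0.0391 by limma. This call was lost without Homo-M-0093, Homo-M-0097, Homo-M-0109, WT-M-0176, WT-M-0177 or WT-M-0178 (0.51 to 0.73 over the 10 fits). It was also lost in late numbered mice alone (0.45, adjusted p = 0.649 by limma) and when the number range entered the fit (0.45, adjusted p = 0.414). In that fit *Casp4* was higher in early than in late numbers by 0.28 (SE 0.14, adjusted p = 0.127 by limma). Het-M libraries lay between 10.0 and 25.4 FPKM (median 19.4), with a log2 fold change of 0.39 (SE 0.16, adjusted p = 0.301 by limma). In females *Casp4* was at 13.2, 8.77, 10.1 and 12.01 FPKM in WT-F, at 10.6 to 16.1 in Homo-F (log2 fold change 0.16) and at 12.9 to 15.4 in Het-F (0.35, unadjusted p = 0.0529 by limma).

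*Nlrp3* was at 13.5, 12.3, 12.7, 11.3 and 9.43 FPKM in WT-M, and at 23.9, 18.9, 13.4, 18.2 and 14.8 in Homo-M. Homo-M-0109 at 13.4 was the 1 library below the highest WT-M library. The 6 Het-M libraries lay between 14.8 and 17.0 FPKM (median 15.5), above all WT-M libraries. Absence of overlap between Het-M and WT-M was seen in 0.84% of all genes, and *Nlrp3* was the 1 gene of the 10 to show it there. Its log2 fold changes were 0.48 in Homo-M (SE 0.16, adjusted p = 0.087 by limma) and 0.34 in Het-M (SE 0.16, adjusted p = 0.339), neither of which was called. In WT-F *Nlrp3* was at 16.7, 12.5, 15.1 and 19.0 FPKM, a level 0.42 higher than in WT-M on the log2 scale (SE 0.17, adjusted p = 1 by limma). Homo-F (12.9 to 20.6 FPKM) and Het-F (11.4 to 20.0 FPKM) overlapped with WT-F, with log2 fold changes of 0.02 (95% interval -0.33 to 0.38) and 0.11 (-0.25 to 0.46).

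The other inflammasome genes showed smaller differences. *Pycard* ranged from 136 to 281 FPKM in WT-M, from 190 to 355 in Homo-M and from 173 to 331 in Het-M, with log2 fold changes of 0.38 (SE 0.16) and 0.31 (SE 0.16). *Casp1* ranged from 28.9 to 43.2 FPKM in WT-M and from 33.1 to 56.3 in Homo-M (0.26, SE 0.12). *Gsdmd* ranged from 76.2 to 101 FPKM in WT-M and from 86.1 to 144 in Homo-M (0.26, SE 0.12). These 3 had unadjusted limma p-values of 0.0251, 0.0349 and 0.0352 in Homo-M and adjusted p-values of 0.16, 0.187 and 0.187. In Homo-F their log2 fold changes were -0.01, 0.01 and 0.01.

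*Gsdmd* moved with the mouse number. In Het-M it was at 145 and 154 FPKM in the early libraries and at 79.2 to 121 in the 4 late ones, and in Homo-M at 114 to 144 in the 3 early and 86.1 and 90.6 in the 2 late libraries. The early and late libraries did not overlap in either group. With 2 to 4 libraries on a side many genes can show this, and the share over all genes was not counted. With the number range in the fit, *Gsdmd* was higher in early numbers by 0.37 on the log2 scale (SE 0.07, adjusted p = 0.000809 by limma), which is 1.296-fold and below the fold threshold. Of all genes, 7.72% passed both thresholds for the number range. What the number range stands for is not given in the sources used here.

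*P2rx7*, the ATP-gated channel, was the steadiest of the genes. It lay between 80.6 and 97.5 FPKM in WT-M, 82.1 and 107 in Homo-M, 83.1 and 103 in Het-M, 86.8 and 94.2 in WT-F, 82.3 and 95.7 in Homo-F and 86.7 and 95.4 in Het-F. Its log2 fold changes were -0.00 in Homo-M (95% interval -0.15 to 0.14), -0.00 in Het-M (-0.14 to 0.14), -0.03 in Homo-F (-0.18 to 0.13) and -0.00 in Het-F (-0.16 to 0.16). Without scaling between libraries, the values in males were 0.08 and 0.07, while the median of all genes was 0.11 and 0.08. The intervals bound any *P2rx7* difference at these sizes and do not show that the groups were equal.

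*Il18*, the other cytokine cleaved by caspase-1, ranged from 32.1 to 49.9 FPKM in WT-M, 43.1 to 61.6 in Homo-M and 40.8 to 58.4 in Het-M. Its log2 fold changes were 0.22 in Homo-M (SE 0.11, adjusted p = 0.227 by limma), 0.17 in Het-M, -0.04 in Homo-F and -0.03 in Het-F. The antagonist *Il1rn* was near the filter on low values, from 0.0432 to 1.11 FPKM, and its intervals were wide. Its log2 fold change was 0.30 in Homo-M (95% interval -0.62 to 1.22), 0.33 in Het-M (-0.55 to 1.22), 0.31 in Homo-F (-0.66 to 1.29) and 0.77 in Het-F (-0.20 to 1.75). In each of these comparisons the interval of *Il1rn* included both 0 and the log2 fold change of *Il1b*. The same held over all Cre-positive groups (95% interval -0.15 to 1.01). A difference of the size seen for *Il1b* was thus neither shown nor excluded for *Il1rn*.

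Over the 10 genes, 2 were called in Homo-M, where 1.81% of all genes were, and 7 had an unadjusted p below 0.05, where 22.5% of all genes did. In Het-M 0 were called (background 0.154%) and 5 had an unadjusted p below 0.05 (14.2%). In Homo-F 0 were called (0.071%) and 1 had an unadjusted p below 0.05 (3.49%), and in Het-F 0 were called (0.13%) and 1 had such a p (3.95%), *Il1b* in each case. The median log2 fold change of the 10 genes was 0.34 in Homo-M, 0.32 in Het-M, 0.02 in Homo-F and 0.11 in Het-F, beside 0.03, 0.01, 0.00 and 0.00 over all genes. No difference that goes with the second *Bin1* copy was detectable in the 10 genes: between Homo-M and Het-M limma called 0 (background 0%) and 0 had an unadjusted p below 0.05 (3.85%), and between Homo-F and Het-F there were 0 (0.0118%) and 0 (2.06%). Limma also called 0 in both sexes without Het-F-0206 and Het-M-0199. For *Il1b* the Homo minus Het difference was 0.06 in males (95% interval -0.46 to 0.58) and -0.21 in females (-0.76 to 0.33).

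Without Het-F-0206 and Het-M-0199, limma called 0 of the 10 genes in Het-M and in Het-F. In Het-M the log2 fold changes were then 0.48 for *Il1a*, 0.37 for *Casp4*, 0.34 for *Nlrp3*, 0.33 for *Pycard*, 0.30 for *Gsdmd*, 0.28 for *Il1rn*, 0.24 for *Casp1* and 0.15 for *Il18*. In Het-F they were 0.85 for *Il1rn*, 0.36 for *Casp4*, 0.21 for *Il1a*, 0.12 for *Nlrp3*, 0.06 for *Casp1* and -0.11 for *Pycard*. Leaving libraries out cannot undo a full separation. That of Het-M from WT-M in *Nlrp3* and that of Het-F from WT-F in *Il1b* were therefore not tested by it.

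The sex difference of the genotype effect, tested by limma as an interaction, was called for 0 of the 10 genes in Homo (background 0%) and in Het mice (background 0%). At an unadjusted p below 0.05 there was 1 gene in Homo, *Il1a* (9.29% of all genes), and 0 in Het mice (4.53%). *Nlrp3* and *Casp4* had interactions of 0.46 in Homo mice (SE 0.24 for each, adjusted p = 0.55 and 0.556 by limma), and *Il1b* one of 0.02 (SE 0.39). Between WT-F and WT-M limma called 0 of the 10 genes (background 0.0473%) and 1, *Nlrp3*, had an unadjusted p below 0.05 (2.91%).

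**Figure D2:**
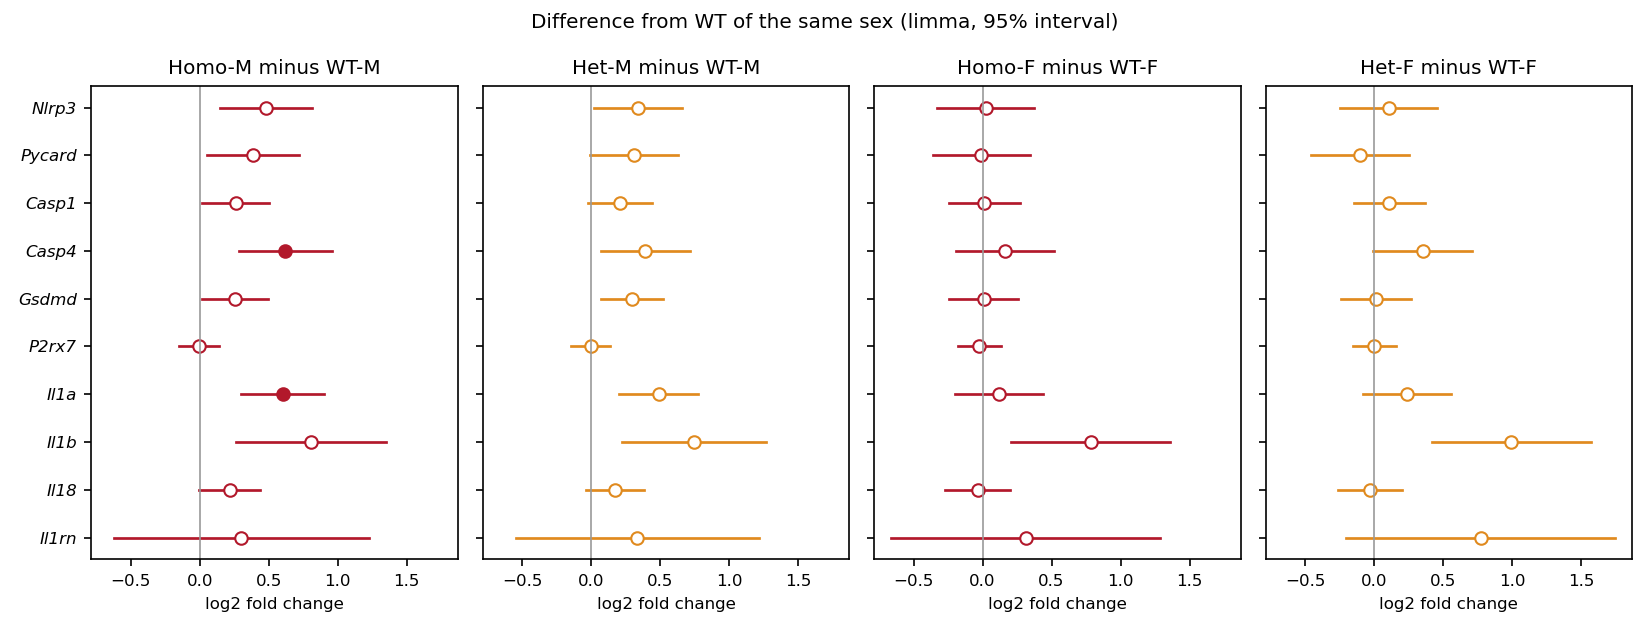
Log2 fold change of the 10 genes from WT of the same sex (horizontal axes) in the 4 comparisons, with 95% intervals from limma; filled points were called. *Il1a* and *Casp4* are called in Homo-M, the interval of *Il1b* lies above 0 in all 4 panels, and *P2rx7* lies at 0.

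The wider pathway was read from 69 other genes listed by role, of which 55 passed the filter. In Homo-M, 3 of the 55 rose and 0 fell, where 1.81% of all genes were called. At an unadjusted p below 0.05 by limma, 12 were higher and 8 lower, where 22.5% of all genes had such a p. They were *Tnf* (1.95, SE 0.37, adjusted p = 0.00657 by limma), *Nfkbiz* (1.13, SE 0.23, adjusted p = 0.0111) and *Casp12* (0.83, SE 0.22, adjusted p = 0.0391). *Tnf* encodes a cytokine of the same priming step, *Nfkbiz* an inducible NF-kappaB cofactor and *Casp12* a caspase of the inflammatory group. The median of the 55 genes was 0.08, so that the list as a whole lay close to the median of all genes (0.03). In Het-M, Homo-F and Het-F 0 of the 55 were called, where 0.154%, 0.071% and 0.13% of all genes were. At an unadjusted p below 0.05, 11, 3 and 5 were higher and 3, 0 and 0 lower in that order, beside 14.2%, 3.49% and 3.95% of all genes.

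*Tnf* was at 0.691, 0.906, 0.681, 1.88 and 1.297 FPKM in WT-M and at 5.51, 6.75, 3.47, 3.90 and 3.403 in Homo-M, without overlap. Absence of overlap between these groups was seen in 3.94% of all genes. *Nfkbiz* was at 2.12 to 3.47 FPKM in WT-M and at 9.60, 7.03, 8.60, 4.79 and 4.51 in Homo-M, where the 3 early libraries were the highest. When the number range entered the fit, *Tnf* differed by 1.60 (adjusted p = 0.104 by limma) and *Nfkbiz* by 0.68 (adjusted p = 0.186), and neither was called. *Nfkbiz* was higher in early numbers by 0.74 on the log2 scale (SE 0.15, adjusted p = 0.00108 by limma, a call that 7.72% of all genes shared). *Casp12* was at 1.13 to 2.01 FPKM in WT-M and 2.46 to 4.24 in Homo-M, and was not called in 7 of 10 fits that left out a library.

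By role, the most abundant sensor was *Aim2*, the receptor of cytosolic DNA, at a mean of 43.6 FPKM over all libraries. It was at 33.2 to 41.9 FPKM in WT-M and 49.5 to 52.8 in Homo-M, without overlap (0.39, SE 0.10, adjusted p = 0.0391 by limma, below the fold threshold). Such a separation was seen in 3.94% of all genes. The other genes of the 55 to separate these groups were *Tnf*, *Nfkbiz*, *Casp12* and *Ccl3*, higher in Homo-M, and the signalling gene *Myd88*, which was lower. *Myd88* was at 42.7 to 51.7 FPKM in Homo-M and 53.6 to 59.8 in WT-M and was not called. Among regulators, *Txnip*, which binds NLRP3, had 187 FPKM and a log2 fold change of -0.41 in Homo-M (adjusted p = 0.0961 by limma). *Casp8* (115 FPKM, -0.08), the ADP receptor *P2ry13* (1320 FPKM, 0.07), the IL-36 receptor *Il1rl2* (23.0 FPKM, 0.11), the kinase *Irak1* (78.2 FPKM, 0.47) and the LPS co-receptor *Cd14* (277 FPKM, -0.29) led the caspases and pores, the purine receptors, the receptors, the signalling and the priming genes. *Il36g*, at 0.381 FPKM, led the 2 further ligands that passed the filter. None of these 7 was called in Homo-M. *Irak1* was at 98.7 to 135 FPKM in the early and at 68.5 and 78.2 in the late Homo-M libraries, beside 61.4 to 69.7 in WT-M. In Het-M it was at 124 and 144 FPKM in the early and at 59.2 to 107 in the late libraries.

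**Figure D3:**
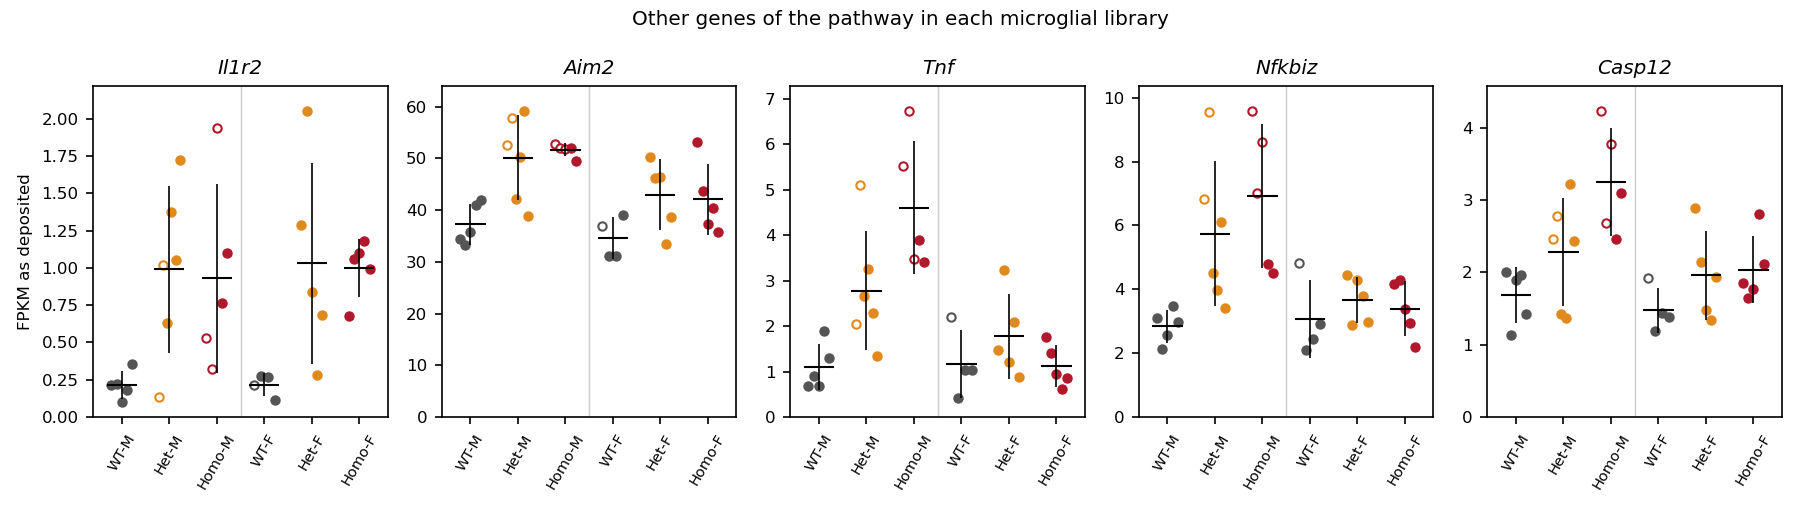
FPKM (vertical axes, linear from 0) of *Il1r2*, *Aim2*, *Tnf*, *Nfkbiz* and *Casp12* in each library of the 6 groups; points are libraries, open for early mouse numbers, with mean ± SD in black. *Il1r2* is low in all 9 WT libraries (at most 0.357 FPKM) and spreads from 0.132 to 2.06 FPKM in the Cre-positive libraries.

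The gene of the pathway with the largest difference over all Cre-positive groups was *Il1r2*, the decoy receptor of IL-1, which is described here because its values stood out. It was at 0.218, 0.2203, 0.0979, 0.181 and 0.357 FPKM in WT-M and at 0.214, 0.274, 0.270 and 0.112 in WT-F. In Homo-M it was at 0.531, 0.321, 1.94, 0.763 and 1.10, in Homo-F at 0.676, 1.06, 1.10, 1.18 and 0.989, in Het-F at 1.29, 2.06, 0.841, 0.283 and 0.684, and in Het-M between 0.132 and 1.72 (median 1.04). In females every Cre-positive library lay above every WT-F library, while in males Het-M-0100 and Homo-M-0097 did not exceed WT-M-0258. Absence of overlap with WT-F was seen in 2.31% of all genes for Homo-F and in 2.21% for Het-F. The highest value, 2.06, was that of Het-F-0206.

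The 4 log2 fold changes of *Il1r2* were 1.49 in Homo-M, 1.54 in Het-M, 1.81 in Homo-F and 1.64 in Het-F (adjusted p = 0.0696, 0.153, 0.361 and 0.387 by limma), none of them called. Without Het-F-0206 and Het-M-0199 the values were 1.40 in Het-M and 1.36 in Het-F. Over all Cre-positive groups the difference was 1.62 (SE 0.29, adjusted p = 0.00211 by limma), and it was called in 30 of 30 fits that left out a library and in 7 of 7 other settings, including 1.51 without Het-F-0206 and Het-M-0199. With a pseudocount of 1 it was 0.66, since its levels are low. *Tnf* (0.95, adjusted p = 0.0331) and *Nfkbiz* (0.61, adjusted p = 0.0287 by limma) were the other genes of the 55 called in this comparison, and they lost the call in 9 and 7 of the 30 fits that left out a library. *Tnf* differed by 1.95 in Homo-M and 1.19 in Het-M, but by 0.04 in Homo-F (0.608 to 1.76 FPKM, beside 0.411 to 2.21 in WT-F) and 0.62 in Het-F (0.880 to 3.24 FPKM). *Nfkbiz* differed by 1.13 and 0.85 in males and by 0.17 in Homo-F and 0.29 in Het-F, and neither gene was called in females. The sex difference in Homo mice was 1.91 for *Tnf* and 0.96 for *Nfkbiz* and did not pass (adjusted p = 0.495 and 0.508 by limma). *Aim2* had an adjusted p of 0.00662 at a log2 fold change of 0.33, below the fold threshold. The median of the 55 genes was 0.02.

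**Figure D4:**
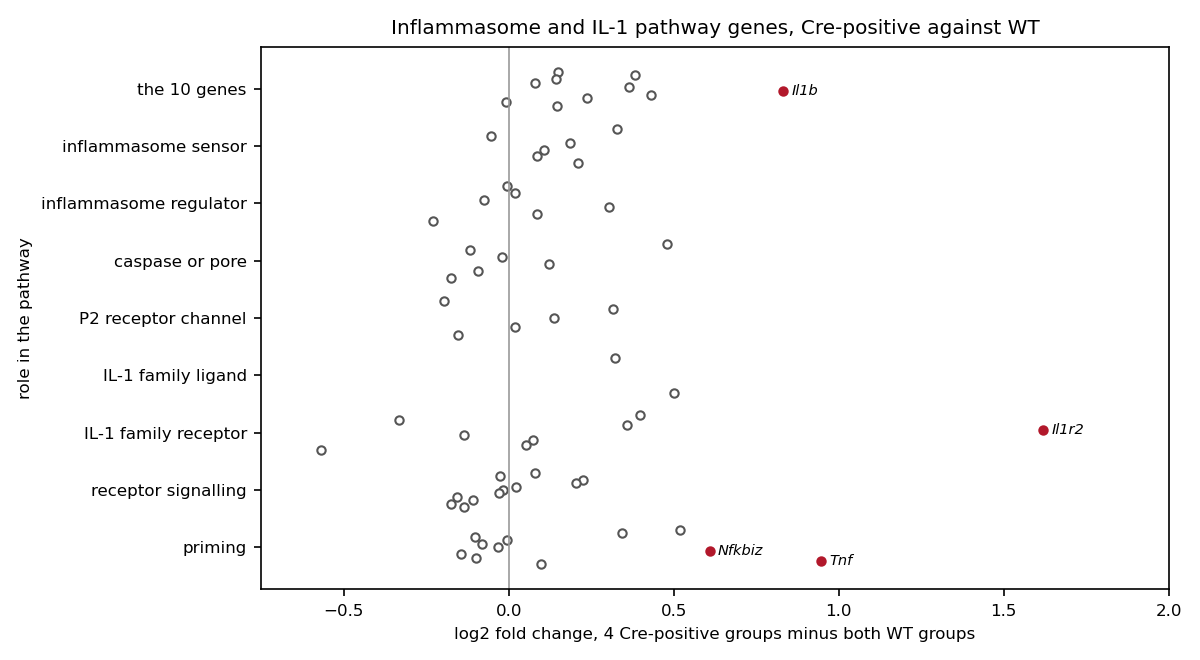
Log2 fold change between the 4 Cre-positive groups and both WT groups (horizontal axis) for the 10 genes and the 55 other genes of the pathway, grouped by role (vertical axis); filled points were called by limma. *Il1b* at 0.83, *Il1r2* at 1.62, *Tnf* at 0.95 and *Nfkbiz* at 0.61 are the genes called.

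Within groups, the 10 genes fell into sets that varied together. The correlation of log2 deviations from group means over the 30 libraries (30 points, 6 group means removed, shared library and depth, no test) was highest for *Pycard* and *Casp1* (r = 0.70), *Casp4* and *Gsdmd* (0.68), *Pycard* and *Il18* (0.66) and *Pycard* and *Il1b* (0.65). *Il1a* was most like *Nlrp3* (0.58) and less like its neighbour *Il1b* (0.25). *P2rx7* went with *Il18* and *Il1b* at -0.57 and -0.42. Pairs of neighbours differed, since *Casp1* and *Casp4* had r = 0.51.

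The same deviations were set beside measures of the library. With the mean level of ribosomal protein genes the correlation was 0.78 for *Pycard*, 0.74 for *Il18*, 0.52 for *Il1b* and -0.68 for *P2rx7*, and 0.01 for *Il1a*. With relative depth it was -0.53 for *Gsdmd* and -0.47 for *Casp4*, and with the summed neutrophil markers it was -0.05 for *Il1b* and -0.43 for *Il1a*. The part of these measures in the group differences was not tested.

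The genes whose deviations were most like those of *Il1a* were *Dusp6* (r = 0.88), *Trib1* (0.81) and *Rin2* (0.81). For *Il1b* they were *Pfdn1* (0.76), *Gm10073* (0.74) and *Sdhaf4* (0.72), and for *Nlrp3* *Polr3b* (0.73), *Cox15* (0.72) and *Lgals8* (0.71). *Pycard* was most like *Rps18* (0.94), *Ssr4* (0.94) and *Ndufb9* (0.94), which encode a ribosomal protein, a subunit of the translocon-associated complex and a subunit of respiratory complex I. *Casp1* was most like *Rbm7* (0.90), *Casp4* like *A330069E16Rik* (0.83), *Gsdmd* like *Miip* (0.94), *P2rx7* like *Ankfy1* (0.81), *Il18* like *Pafah1b3* (0.81) and *Il1rn* like *Sema4a* (0.72). Each r is among the 3 highest for that gene over all genes tested, and a gene named first or alone has the highest.

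**Figure D5:**
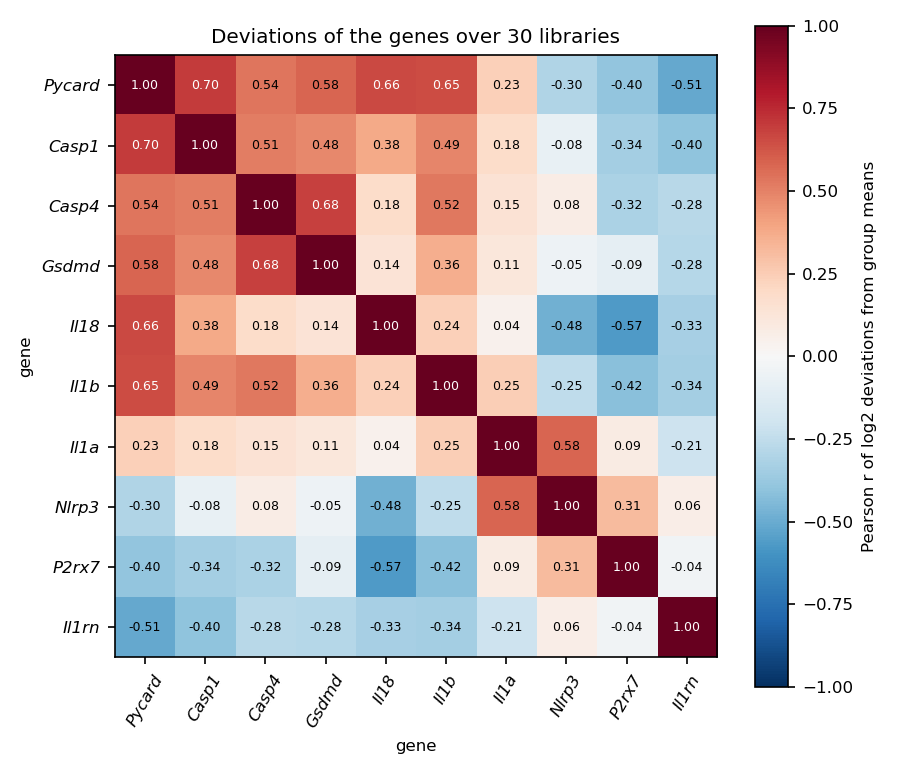
Pearson r between the log2 deviations of the 10 genes from their group means over 30 libraries (both axes list the genes; colour runs from -1 to 1). *Pycard*, *Casp1*, *Casp4*, *Gsdmd*, *Il18* and *Il1b* are positive with each other, while *Nlrp3* and *Il1a* form a separate pair at 0.58.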

How the data were processed

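RNA-seq of 30 microglia libraries was analysed, each with its own mouse number in the labels. Per the study's methods, libraries were made with SMARTer v4 and Nextera XT, aligned with OSA4 to mm10 and quantified by RSEM on Ensembl gene models, and the authors deposited the values as FPKM. Counts were not analysed here, so absolute depth is unknown. Another 6 columns match no listed sample and were not used.

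FPKM were scaled by the median of their ratios to a reference built from genes of at least 1 FPKM, and log2(FPKM + 0.1) was fitted in R 4.3.3 with limma 3.58.1 (intensity trend, all 6 groups in 1 fit) over 16897 genes with a mean of at least 0.1 FPKM. All p-values are two-sided and adjusted by Benjamini-Hochberg. The script was tested on simulated data. Tables were made with Python 3.11.15, pandas 2.3.3 and numpy 2.4.6. The genes and lists were chosen with earlier results of these data known. Named are all 10 genes, in each pathway role the gene with the highest mean and every gene called in a planned comparison, and for each of the 10 its most similar genes. *Il1r2* was singled out after its values were seen, and *Myd88* and *Ccl3* are named for their separation of Homo-M from WT-M. Alternatives covered the pseudocount (1 and 0.01), the filter, the scaling, array weights, the groups in the fit, the mouse number range and single libraries left out.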

Additional observations from a re-analysis of the deposited data

Results flagged for a closer look

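Of the 60 sets of values examined (10 genes in 6 groups), 4 held a library far from the others of its group by Dixon's ratio, which chance gives in about 1 in 20 groups. *Il1a* was at 98.7 FPKM in WT-M-0202, where the next WT-M library was at 67.2 FPKM, and without that library the Het-M difference of *Il1a* was called by limma at 0.60. *Casp4* was at 16.1 FPKM in Homo-F-0193, with the next Homo-F library at 11.97 FPKM. *Il18* was at 61.6 FPKM in Homo-M-0109, with the next Homo-M library at 48.4 FPKM. *Il1rn* was at 0.731 FPKM in Het-M-0108, with the next Het-M library at 0.298 FPKM.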

How the results depend on the processing

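The number of the 10 genes called in Homo-M (2) was 1 with no filter on low values, and 0 when only the groups compared were fitted, with the number range in the fit and in late numbers only. Leaving out each library gave 0 to 3 in Homo-M and 0 to 1 in Het-M. With array weights 1 of the 10 was called in Het-F. Of the other pathway genes (3 called in Homo-M), 0 were called with the number range in the fit and in late numbers only, and 1 was called in Het-M in late numbers only, in Homo-F with array weights and with only the groups compared, and in Het-F with array weights. *Il1b* in Homo-M was called with array weights (adjusted p = 0.0405 by limma) and without Homo-M-0189, WT-M-0202 or WT-M-0258 (0.0401 to 0.0447). The cause of these changes was not tested. The share of all genes called in each of these other settings is not given here, so these counts have no background beside them.

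Differences near 0 that were not called changed sign in some settings. Without scaling the log2 fold change was 0.078 for *P2rx7* in Homo-M, 0.070 for *P2rx7* in Het-M and 0.0053 for *P2rx7* in Het-F. In late numbers only the log2 fold change was 0.014 for *P2rx7* in Het-M, 0.073 for *Pycard* in Homo-F, 0.0066 for *Il18* in Homo-F, -0.017 for *Il1rn* in Homo-F, 0.0042 for *P2rx7* in Het-F and 0.013 for *Il18* in Het-F. Without Het-F-0206 and Het-M-0199 the log2 fold change was 0.015 for *P2rx7* in Het-M and -0.026 for *Gsdmd* in Het-F. With array weights the log2 fold change was -0.020 for *Nlrp3* in Homo-F. With the number range in the fit the log2 fold change was 0.051 for *Pycard* in Homo-F and 0.0038 for *P2rx7* in Het-F. With quantile normalization the log2 fold change was -0.0046 for *Gsdmd* in Homo-F, 0.0012 for *P2rx7* in Het-F and -0.038 for *Tnf* in Homo-F. With a pseudocount of 1 the log2 fold change was -0.0067 for *Tnf* in Homo-F.

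Signs also changed on leaving out single libraries. In Homo-M the range was -0.048 to 0.039 for *P2rx7*. In Het-M the range was -0.048 to 0.040 for *P2rx7*. In Homo-F the range was -0.076 to 0.12 for *Nlrp3*, -0.10 to 0.074 for *Pycard*, -0.034 to 0.056 for *Casp1*, -0.035 to 0.056 for *Gsdmd*, -0.048 to 0.0010 for *P2rx7*, -0.024 to 0.22 for *Il1a*, -0.077 to 0.024 for *Il18*, -0.016 to 0.62 for *Il1rn* and -0.33 to 0.38 for *Tnf*. In Het-F the range was -0.029 to 0.062 for *Gsdmd*, -0.024 to 0.020 for *P2rx7* and -0.097 to 0.013 for *Il18*.

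The study calls the WT mice littermates, but the sample titles give no litter, so no analysis paired by litter was possible. With no counts, depth limits could not be computed. The level of *Il1r2* is low, and its log2 fold change depends on the pseudocount.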
